A study of Mus musculus with 6 samples.

Results

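The genes described here are 10 members of the machinery that anchors epithelial cells to the basement membrane: Itga6, Itgb4, Col17a1, Lama3, Lamb3, Itga3, Itgb1, Itgav, Itgb5 and Itgb6. They were chosen by name and matched by Ensembl identifier, with no measured value in the rule. Earlier results of these data were known at that choice. The study itself reported Itgb1, Itgav and Itgb5 as strong in basal but not in intermediate cells. Each member was found in all 6 tables, as 10 of the 14338 genes compared. Single-cell RNA-seq libraries were made from the bladder mucosal layer, torn off and digested with collagenase and DNase, of wild type C57BL/6 mice of 8 weeks, with 2 libraries per condition. The labels of the healthy mice name no drug, the acute group was taken 48 h after cyclophosphamide (CPP), a cytotoxic drug whose metabolites strip the urothelium, and the chronic group received 4 rounds of CPP over 11 days. The series' design text calls the libraries biological replicates but does not say how many animals each held. The study's text gives a range of mice per condition only. P-values therefore measure the spread between libraries, and with 2 against 2 libraries an exact permutation test cannot go below p = 0.333.

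The urothelium is a layered epithelium with basal cells on the basement membrane, intermediate cells above them and large superficial (umbrella) cells facing the urine. Hemidesmosomes are the anchoring plaques of basal epithelial cells: the integrin alpha 6 beta 4 pair (Itga6, Itgb4) and the transmembrane collagen XVII (Col17a1) bind laminin-332 in the basement membrane, of which Lama3 and Lamb3 encode the alpha and beta chains. Integrin alpha 3 (Itga3) pairs with beta 1 (Itgb1) as another laminin receptor. Integrin alpha v (Itgav) pairs with beta 1, beta 5 (Itgb5) or beta 6 (Itgb6) and binds matrix proteins that carry an arginine-glycine-aspartate motif, and the epithelial alpha v beta 6 pair is known for activating latent TGF-beta.

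After filtering and removal of 4469 called doublets, 50929 cells remained, of which 35165 were urothelial cells assigned to a layer. Levels are given as CPM, the UMI count of a gene scaled to a common depth, over all cells of a class in a library. The depth is the UMIs of the 14338 genes compared, so CPM lies above a level scaled by all UMIs. Those genes are listed in all 6 tables, and ribosomal protein and mitochondrial genes were left out. Values for the 6 libraries are given in the order healthy 1 and 2, acute 1 and 2, chronic 1 and 2. Levels of different genes are not compared. Over all genes listed, total UMIs ran from 54604109 to 111985678 per library and median UMIs per cell from 5530 to 9138. Pairs of libraries shared 36 to 229 cell barcodes. Basal, intermediate and superficial classes and cycling calls were made in the same cells from keratin, uroplakin and cell cycle genes, with every adhesion gene kept out of the clustering and the scores. Krt5, a basal keratin, ran from 1004 to 1410 CPM in basal cells, 442 to 562 CPM in intermediate cells and 68.7 to 141 CPM in superficial cells. Of the basal and intermediate cells, 9.10% lay within 0.1 of the score at which basal and intermediate calls part. Within each library, 1.20% to 14.7% of urothelial cells fell in a sub-cluster that carried fibroblast transcripts and were left out.

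In the GRCm38 annotation 3 members lie on chromosome 2 and 2 on chromosome 11. Itga6 (ENSMUSG00000027111) spans chr2:71745616-71858416, Itgav (ENSMUSG00000027087) chr2:83724397-83806916 and Itgb6 (ENSMUSG00000026971) chr2:60598292-60722643. Itga3 (ENSMUSG00000001507) spans chr11:95044474-95076801 and Itgb4 (ENSMUSG00000020758) chr11:115974709-116008412. Col17a1 (ENSMUSG00000025064) spans chr19:47646344-47692094, Lamb3 (ENSMUSG00000026639) chr1:193207699-193343878, Itgb1 (ENSMUSG00000025809) chr8:128685654-128733200 and Itgb5 (ENSMUSG00000022817) chr16:33829665-33949338. Lama3 has the identifier ENSMUSG00000024421. Exons of Itgav, Itgb4 and Lama3 overlap a noncoding gene on the opposite strand, and the strand setting of the counting was not given in the sources used here, so their reads may be shared with those genes.

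The windows of 250 bases before the RefSeq start site (GRCm38.p6) were read for 7 members, some with more than 1 start. Shown are 3 members with different patterns: Col17a1, with the steepest rise toward basal cells, Itgb5, a member that was higher in stromal cells, and Itgb6, the member that was higher in superficial cells. Capitals mark the Sp1 letters GGGCGG on either strand.
Col17a1, chr19:47692043-47692292, minus strand: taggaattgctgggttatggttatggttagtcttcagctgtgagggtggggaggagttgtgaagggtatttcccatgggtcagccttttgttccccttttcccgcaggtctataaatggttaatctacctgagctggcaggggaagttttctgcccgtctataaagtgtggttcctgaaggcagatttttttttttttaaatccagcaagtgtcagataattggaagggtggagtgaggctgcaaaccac
Itgb5, chr16:33829415-33829664, plus strand: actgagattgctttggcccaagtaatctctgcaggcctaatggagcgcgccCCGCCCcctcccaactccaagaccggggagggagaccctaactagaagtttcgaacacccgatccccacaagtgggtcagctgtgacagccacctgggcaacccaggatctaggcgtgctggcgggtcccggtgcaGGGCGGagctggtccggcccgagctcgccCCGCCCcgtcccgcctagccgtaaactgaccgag
Itgb6, chr2:60722604-60722853, minus strand: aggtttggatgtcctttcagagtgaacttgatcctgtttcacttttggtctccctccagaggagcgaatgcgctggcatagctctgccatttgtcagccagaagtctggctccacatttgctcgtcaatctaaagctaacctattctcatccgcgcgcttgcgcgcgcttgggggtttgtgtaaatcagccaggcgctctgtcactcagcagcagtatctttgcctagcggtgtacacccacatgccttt
The Itgb5 window held the Sp1 letters 3 times and was 65.2% G and C, while the Col17a1 window held none and was 46% G and C. Over all 32851 windows of the table the median was 52.4% G and C and 32.7% held the Sp1 letters. None of the 10 windows of members held the AP-1 letters TGANTCA, which 6.75% of all windows hold. The TEAD letters GGAATG, found in 12.6% of all windows, occurred once each in a window of Itgb1 and of Lamb3. All were searched on both strands, and a match or its absence in these windows is a description of letters only.

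The first comparison asked how the members are distributed over the layers. Of the 10 members, 9 were higher in non-cycling basal than in non-cycling intermediate cells and none was lower, whereas 37.9% of the 11935 genes tested were called, 19.3% higher and 18.6% lower (edgeR quasi-likelihood test on sums per library and class, adjusted p below 0.05). The median difference of the members was 0.70 on the log2 scale, against 0.0058 over all genes tested. The hemidesmosome core, collagen XVII and Itga3 carried the steepest differences. From intermediate to superficial cells, 9 members were lower in superficial cells and Itgb6 was higher, with 53.4% of all genes called, 27.0% higher and 26.3% lower, and with a median of -1.09 for the members and 0.0082 for all genes.

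Col17a1, the collagen that links the hemidesmosome to laminin, stood in basal cells at 60.7, 80.2, 68.4, 50.9, 44.7 and 51.4 CPM. In intermediate cells it stood at 4.55, 11.9, 5.79, 8.32, 5.35 and 5.34 CPM. The lowest basal value lay well above the highest intermediate value. The edgeR difference was 3.05 ± 0.12 on the log2 scale (SE), an 8.28-fold higher level (adjusted p = 2.37e-22), and the sign was the same in 6 of 6 libraries. In superficial cells Col17a1 ran from 1.09 to 3.48 CPM, on 3 to 14 UMIs per library, and was 3.31-fold lower than in intermediate cells (-1.73 ± 0.27, adjusted p = 6.53e-07). The share of cells with a Col17a1 UMI had a median over libraries of 20.1% in basal, 2.82% in intermediate and 1.27% in superficial cells, beside 0.604% in fibroblasts, a type that should lack it. Median depths over the genes compared were 3766 UMIs per cell in basal, 4978 in intermediate and 8881 in superficial cells and 2529 in fibroblasts. With cells thinned to 3000 UMIs, which left out 10371 of the 44232 cells as too shallow, these medians were 14.6%, 1.72% and 0.663%, beside 1.38% in fibroblasts. Only 10 to 558 fibroblasts per library reached that depth, so the thinned fibroblast share comes from their deepest droplets. The superficial share of Col17a1 was above the fibroblast share without thinning and below it with thinning, so neither expression nor its absence is read from it.

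Itgb4, the beta chain found in hemidesmosomes, stood in basal cells at 190.0, 140.5, 138, 73.3, 121 and 125 CPM and in intermediate cells at 55.5, 55.6, 55.0, 39.7, 53.9 and 49.5 CPM. The groups did not overlap, although the acute 2 library was the lowest in both layers. The basal level was 2.36-fold higher (1.24 ± 0.09, adjusted p = 9.42e-15). Superficial cells held 12.8 to 22.8 CPM, below every intermediate value, and the difference from intermediate cells was -1.46 ± 0.11 (adjusted p = 3.18e-14).

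Itga6, its alpha partner and a marker often used to sort basal cells, stood in basal cells at 310, 189, 280.0, 174, 160.1 and 165 CPM. Intermediate cells held 136, 109, 138, 92.1, 83.8 and 80.8 CPM. Again the classes did not overlap, and the healthy 1 and acute 1 libraries were the highest in both. The basal level was 1.87-fold higher (0.91 ± 0.08, adjusted p = 2.13e-12). Superficial cells held 71.9, 22.97, 46.0, 28.6, 20.8 and 25.2 CPM, all below the intermediate values of any library, with a difference of -1.53 ± 0.09 (adjusted p = 1.56e-17).

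The laminin-332 chains differed less between basal and intermediate cells and more above them. Lama3 was 1.61-fold higher in basal than in intermediate cells (0.69 ± 0.11, adjusted p = 1.71e-06), with 20.4 to 38.9 CPM against 12.5 to 19.7 CPM. Lamb3 was 1.55-fold higher (0.63 ± 0.09, adjusted p = 8.13e-07), with 86.6 to 112 CPM against 52.5 to 70.4 CPM. For both genes the classes did not overlap. In superficial cells Lama3 fell by 2.14 ± 0.18 on the log2 scale, to 1.09 to 8.35 CPM on 6 to 17 UMIs a library, and Lamb3 fell by 2.09 ± 0.13, to 6.96 to 27.1 CPM.

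Itga3, the alpha chain of the other laminin receptor, had the second steepest basal rise. Its basal values were 178, 96.5, 116, 52.0, 64.3 and 111 CPM, against 35.6, 32.1, 33.1, 20.7, 24.4 and 40.8 CPM in intermediate cells. All basal values exceeded all intermediate values, and the basal spread between libraries was wide. The difference was 1.61 ± 0.11, or 3.05-fold (adjusted p = 2.53e-15), and it differed between libraries from 1.29 to 2.29 on the log2(CPM + 1) scale. Itga3 was 1.52-fold lower in superficial than in intermediate cells (-0.61 ± 0.14, adjusted p = 0.000293), where the classes overlapped.

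Itgb1, the beta chain shared by most integrins, was 1.64-fold higher in basal cells (0.71 ± 0.06, adjusted p = 1.8e-12). It stood at 187, 154, 169, 129.96, 133 and 196 CPM in basal and at 98.4, 87.8, 93.8, 80.5, 89.9 and 115 CPM in intermediate cells. The classes did not overlap. Superficial cells held 58.8 to 77.4 CPM, and the step down from intermediate cells was small (-0.33 ± 0.07, adjusted p = 5.3e-05).

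Of the alpha v group, Itgb5 followed the layers and Itgav differed little between basal and intermediate cells. Itgav stood at 88.3, 43.2, 75.2, 44.6, 58.8 and 80.4 CPM in basal cells and at 69.0, 32.8, 73.7, 45.5, 49.0 and 67.9 CPM in intermediate cells. Libraries differed far more than layers did. The difference of 0.14 ± 0.09 was not called (adjusted p = 0.218), with a 95% interval of -0.03 to 0.32. Itgb5 was 1.35-fold higher in basal cells (0.44 ± 0.08, adjusted p = 1.12e-05) with overlapping classes, and its mean fell from 72.1 ± 11.9 CPM in basal to 51.5 ± 6.08 CPM in intermediate and 29.0 ± 9.21 CPM in superficial cells (SD, n = 6). Both genes were lower in superficial than in intermediate cells, Itgav by -0.31 ± 0.10 and Itgb5 by -0.72 ± 0.09. For Itgb5 these classes did not overlap. For Itgav they did, with 28.0 to 58.6 CPM against 32.8 to 73.7 CPM. Its difference within a library ran from -1.19 to 0.16 on the log2(CPM + 1) scale and was negative in 5 of 6 libraries.

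Itgb6, the epithelial beta chain of the pair that activates TGF-beta, was the exception. It stood in superficial cells at 38.0, 45.9, 43.8, 20.9, 34.7 and 32.8 CPM, against 27.6, 21.4, 25.0, 18.6, 20.5 and 27.2 CPM in intermediate cells. The superficial level was higher in 6 of 6 libraries, although the ranges overlapped because the acute 2 library was low in both classes. The rise was 1.60-fold (0.68 ± 0.11, adjusted p = 7.28e-07). Itgb6 was also higher in basal than in intermediate cells, by 0.34 ± 0.10 (adjusted p = 0.00753), and that call was lost without the healthy 1 library (0.22, adjusted p = 0.109). After thinning to 3000 UMIs per cell, the median share of cells with an Itgb6 UMI was 8.51% in basal, 6.74% in intermediate and 9.69% in superficial cells, beside 0.538% in fibroblasts.

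**Figure D1:**
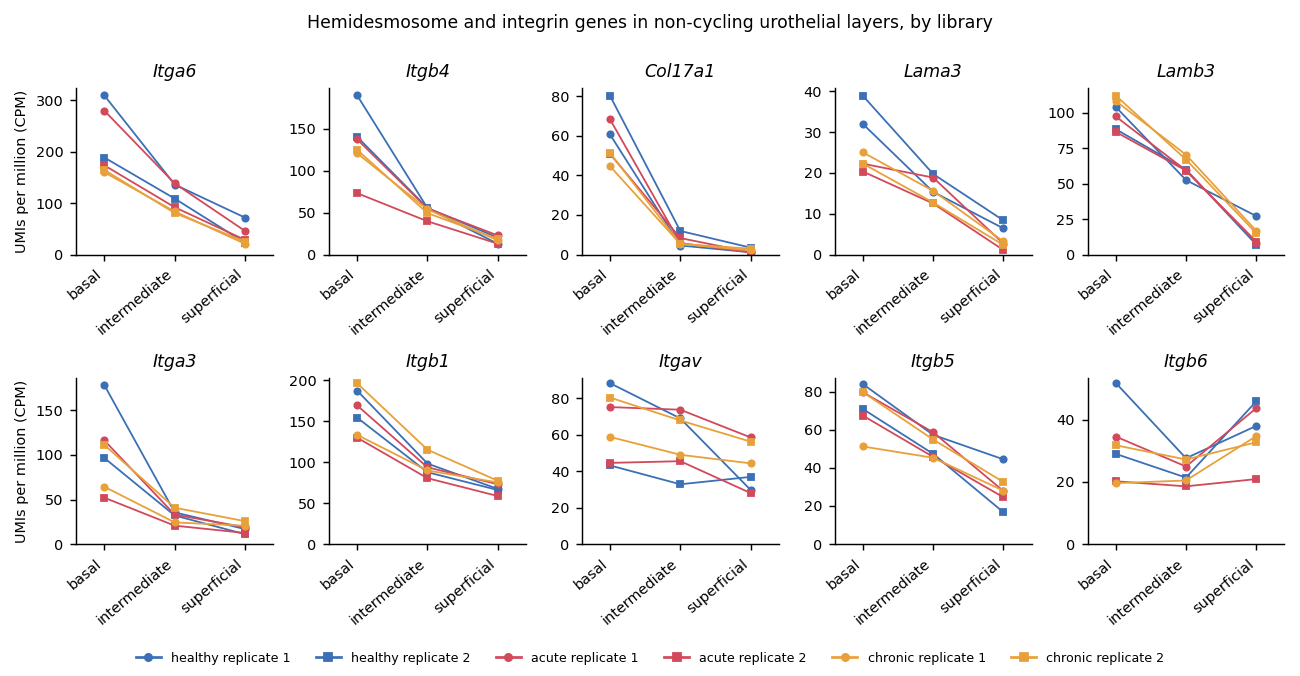
Level of each member (CPM, linear axes from 0) in non-cycling basal, intermediate and superficial cells, with 1 line per library, colored by condition. Col17a1 drops from 44.7 to 80.2 CPM in basal cells to 4.55 to 11.9 CPM in intermediate cells, while the Itgb6 lines turn upward in superficial cells in all 6 libraries.

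To see the members without a hard border between the layers, non-cycling basal and intermediate cells of all libraries together were split into 5 bins of equal size by the difference of their basal and luminal scores. A library's own cells were not spread evenly, with 1969 cells of chronic 1 in the most luminal and 390 in the most basal bin. Itga6, Itgb1 and Itgb4 rose at every step from the most luminal to the most basal bin in 6 of 6 libraries, and Col17a1 did so in 5 of 6. The ratio of the most basal to the most luminal bin had a median over libraries of 33.0 for Col17a1 (range 21.6 to 73.2), from 2.06 ± 1.20 CPM to 67.5 ± 13.7 CPM (mean ± SD, n = 6). It was 4.48 for Itga3, 3.69 for Itgb4 and 2.74 for Itga6. The chains Lamb3, Itgb1 and Lama3 had median ratios of 2.43, 2.42 and 2.38, and Itgb5 had 1.78. Itgb6 rose at every step in 0 of 6 libraries and had a median ratio of 1.35, with a range from 0.673 to 1.98. Itgav had a median ratio of 1.19 and was higher in the most basal bin in 5 of 6 libraries. The bins come from scores in the same cells, so these ratios are a description with no test.

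**Figure D2:**
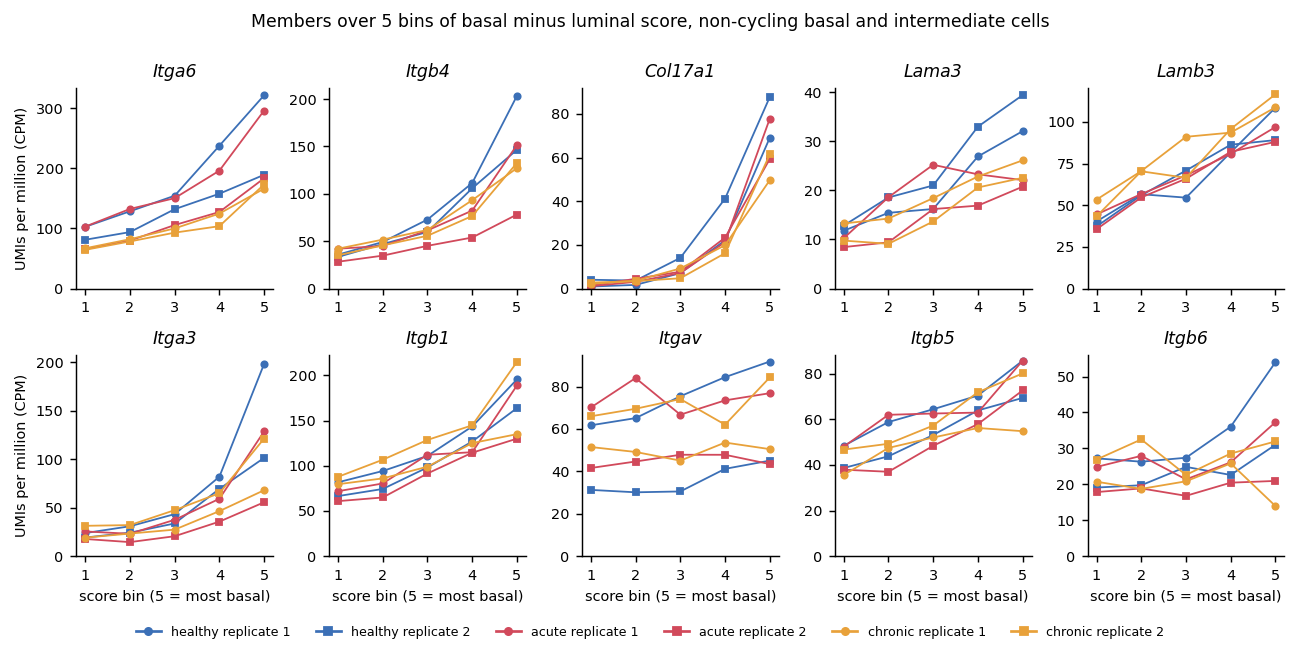
Level of each member (CPM, linear axes from 0) over 5 bins of cells ordered by basal minus luminal score, where bin 5 is the most basal, with 1 line per library colored by condition. Itga6, Itgb1 and Itgb4 climb at each step in all 6 libraries, and Col17a1 reaches 49.6 to 87.7 CPM in bin 5 from 0.943 to 4.05 CPM in bin 1.

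The members also varied among the sub-clusters of basal cells, which are described without a test because they were clustered on the same cells. In the sub-cluster led by Gm12840 and Has3, Itga6 had a mean of 282 ± 92.0 CPM (SD, n = 6). In the sub-cluster led by Txnip, Cyp2f2 and Ly6a, Itga6 had a mean of 134 ± 36.4 CPM. Lamb3 did not follow Itga6, with 112 ± 14.4 CPM and 115 ± 18.5 CPM in the same pair. A small basal sub-cluster led by Sncg, Mcam and Cdkn1a reached 20 cells only in the 4 injured libraries. There Col17a1 stood at 142 and 65.8 CPM in the acute and 81.7 and 112.5 CPM in the chronic libraries, on 11 to 91 UMIs each, and Itga6 stood at 303, 194, 156 and 128 CPM.

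Other adhesion genes were read from 4 lists set by function, beside 19.3% of all genes higher and 18.6% lower in basal than in intermediate cells. Among 6 partners of the hemidesmosome, 4 were higher in basal than in intermediate cells and 0 lower, led by Bcam, a receptor for laminin alpha 5 (1.52 ± 0.08, adjusted p = 2.54e-19), and Dst, the plakin that ties hemidesmosomes to keratin filaments (0.89 ± 0.09, adjusted p = 6.34e-11). Of 14 matrix ligands tested, 6 were higher and 1 lower, with Thbs1 at 1.10 ± 0.11, Lama5 at 0.63 ± 0.07 and Lamb2 at -0.44 ± 0.10. Of 15 adaptors, 8 were higher and 0 lower, led by Fermt1, the epithelial kindlin (0.79 ± 0.08), and Parva (0.56 ± 0.09). Of 7 other integrin chains tested of 16 listed, 2 were higher and 0 lower. Between superficial and intermediate cells the lists were mixed, with 3 higher and 1 lower among partners, 3 and 3 among ligands, 3 and 5 among adaptors and 1 and 2 among integrins, beside 27.0% higher and 26.3% lower over all genes. Nothing particular to these lists is read from the counts. Plec, another plakin of the hemidesmosome, was higher in superficial cells (0.47 ± 0.09, adjusted p = 1.50e-05), whereas Bcam fell by 1.63 ± 0.10.

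Over the 34 profiles of a library and urothelial class with enough cells, the 5 genes whose log2(CPM + 1) was most like that of Itga6 among 6132 genes were Tnfaip8 (Pearson r = 0.97), the noncoding gene Gm20186 (0.97), Mafg (0.97), Gadd45a (0.96) and Ptpn1 (0.96). Of the members, Itgb5 came nearest (0.93), followed by Lamb3 and Itgb4 (both 0.89), Itga3 (0.87), Itgb1 (0.86), Lama3 (0.85) and Col17a1 (0.84). Itgav had 0.62 and Itgb6 had 0.07. The profiles share libraries and depth, so these values are descriptive.

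The next comparison asked how adhesion genes differ between dividing basal and dividing intermediate cells, a question the study raised. Cycling cells were those with a high G1/S or G2/M score. The study described its cycling luminal cells as resembling superficial cells, with Acer2 and Clu expressed. Here cycling cells of superficial sub-clusters form a class of their own, described below. The cycling intermediate class is therefore not the study's population, and its results are not set against the study's statement. In cycling basal against cycling intermediate cells, 6 of 10 members were higher and 0 lower, with 23.1% of all genes called, 12.5% higher and 10.6% lower (edgeR). Their median difference was 0.46, against 0.023 over all genes.

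Col17a1 stood at 81.3, 77.0, 91.1, 65.0, 77.6 and 50.2 CPM in cycling basal and at 11.6, 22.6, 16.8, 19.6, 14.0 and 11.1 CPM in cycling intermediate cells. The classes did not overlap, and the difference was 2.17 ± 0.22, or 4.50-fold (adjusted p = 5.94e-10). Itgb4 stood at 220.3, 195, 199, 112, 132 and 161 CPM against 81.0, 74.9, 112.7, 40.4, 62.1 and 49.8 CPM. It was 2.30-fold higher (1.20 ± 0.13, adjusted p = 2.41e-09) in 6 of 6 libraries, and the ranges touched because acute 1 was the highest cycling intermediate library and acute 2 the lowest cycling basal library.

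Itga3 was 2.17-fold higher in cycling basal cells (1.12 ± 0.18, adjusted p = 7.84e-06) and Itga6 was 1.72-fold higher (0.78 ± 0.11, adjusted p = 6.08e-07). Itgb1 was 1.38-fold higher (0.46 ± 0.08, adjusted p = 5.67e-05), with 146 to 217 CPM against 103 to 135 CPM and no overlap. Lamb3 was 1.37-fold higher (0.46 ± 0.15, adjusted p = 0.0266). That call was lost when healthy 2, acute 1, acute 2 or chronic 2 was left out (adjusted p 0.0912, 0.0674, 0.0536 and 0.0754). With layers called by whole sub-clusters it was lost too (0.30, adjusted p = 0.147). The other 4 members were not called, with Itgav at 0.20 (95% interval -0.08 to 0.48), Itgb5 at 0.22 (-0.03 to 0.46), Itgb6 at 0.31 (-0.09 to 0.70) and Lama3 at 0.38 (-0.06 to 0.81). With a stricter cycling threshold of 4 median absolute deviations, 3 members were called, Col17a1 (1.79), Itgb4 (0.92) and Itga6 (0.90).

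Whether the layer difference itself changed with cycling was tested as an interaction. For 0 of 10 members did it pass (edgeR, and 0 by DESeq2), with 0.168% of all genes called, 0.134% higher and 0.0335% lower, although 3 members had an unadjusted p below 0.05. Of the 11935 genes tested, 1250 stood at that unadjusted level. The value of Col17a1, cycling minus non-cycling, was -0.88 ± 0.28 (adjusted p = 0.208). Itga3 had -0.49 ± 0.21 and Itgb1 had -0.25 ± 0.10.

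Within the basal layer, cycling and non-cycling cells differed in 1 member, with 23.3% of all genes called, 12.2% higher and 11.1% lower. Itgb4 was 1.27-fold higher in cycling basal cells (0.35 ± 0.10, adjusted p = 0.0096) and higher in 6 of 6 libraries, but this call was lost when cells were clustered without integration (0.34, adjusted p = 0.0516) and when whole sub-clusters were called basal (0.11, adjusted p = 0.436). Itga6 differed by -0.10 ± 0.09, Itga3 by 0.00 ± 0.13 and Itgb1 by 0.05 ± 0.07, none of them called. Lamb3 had -0.26 ± 0.12 (adjusted p = 0.125), below the non-cycling level in 5 of 6 libraries, and it was called lower without healthy 1 (-0.28, adjusted p = 0.0364) and when whole sub-clusters were called basal (-0.42, adjusted p = 0.0103).

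Within the intermediate layer 3 members were higher in cycling cells and 0 lower, with 7.36% of all genes called, 4.74% higher and 2.61% lower. Col17a1 was 2.27-fold higher (1.18 ± 0.26, adjusted p = 0.00133) in 6 of 6 libraries, Itgb4 was 1.31-fold higher (0.39 ± 0.12, adjusted p = 0.0425) and Itgb1 was 1.23-fold higher (0.30 ± 0.08, adjusted p = 0.0078). The Col17a1 values rested on 6 to 26 UMIs in cycling intermediate cells. None of the 3 calls held when whole sub-clusters were called basal, where Col17a1 had 0.79 (adjusted p = 0.344). The Itgb4 call held in 7 of 15 alternatives, and without acute 1 it had 0.22 (adjusted p = 0.480). The Itgb1 call was also lost without acute 2 (0.27, adjusted p = 0.0708) and without integration (0.16, adjusted p = 0.266). In the same contrast 3 of 5 stromal transcripts (Col1a1, Col1a2, Col3a1, Dcn, Lum) were higher too, and their summed level ran from 217 to 1155 CPM in cycling and from 156 to 633 CPM in non-cycling intermediate cells. Of the urothelial transcripts Upk1a, Upk1b, Upk2, Upk3a and Krt19, 3 of 5 were lower and 0 higher in cycling intermediate cells, with a median difference of -0.29 on the log2 scale. The part of either list in the result was not tested.

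**Figure D3:**
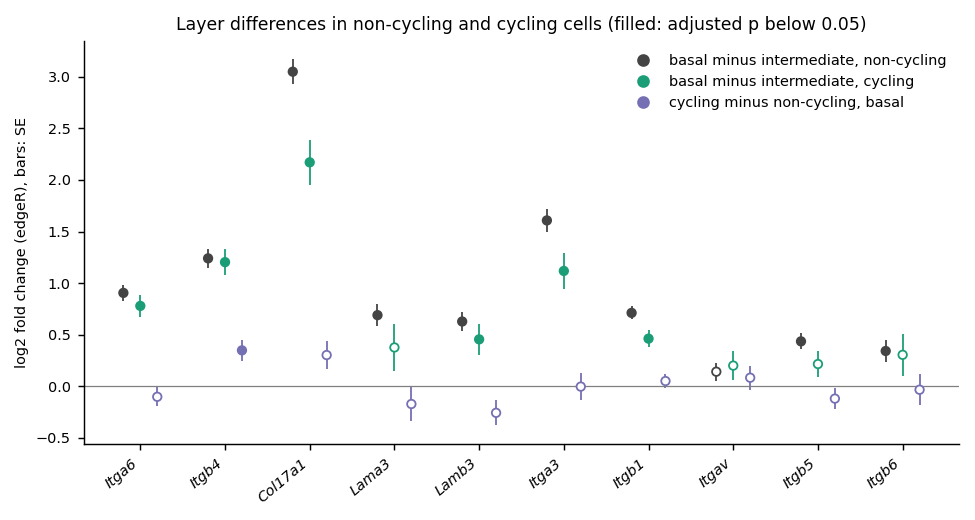
Difference of each member on the log2 scale (edgeR, error bars are SE, filled points have adjusted p below 0.05) between basal and intermediate cells, non-cycling and cycling, and between cycling and non-cycling cells of a layer. Col17a1 lies at 3.05 in non-cycling and 2.17 in cycling cells for the layer difference, while most members lie near 0 between cycling and non-cycling basal cells.

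Cycling cells with superficial markers were frequent enough only in the 4 injured libraries, since each healthy library held 15 such cells. There Itgb1 stood at 72.3, 64.2, 64.7 and 89.2 CPM and Itga6 at 43.7, 30.5, 24.6 and 30.4 CPM. Col17a1 stood at 0.961, 3.46, 1.29 and 3.10 CPM and Itgb6 at 28.6, 17.3, 31.1 and 27.9 CPM. The Itga6 levels lay within the range of non-cycling superficial cells, 20.8 to 71.9 CPM, in all 4 libraries, and the Col17a1 levels rest on 2 to 11 UMIs. Itgav had a mean of 40.8 CPM and Itgb5 of 29.4 CPM in this class (n = 4). In cycling basal cells the means were 69.3 and 70.1 CPM (n = 6). The difference between these classes was not tested.

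Outside the urothelium the members did not move together. In fibroblasts all 10 members differed from the urothelial level, 3 higher and 7 lower, with 69.3% of all genes called, 32.5% higher and 36.8% lower. The same counts held in myofibroblasts, where 67.0% of all genes were called, 30.8% higher and 36.2% lower. In both types Itgb1, Itgb5 and Itgav were the 3 that were higher. Within fibroblasts alone 9 members and within myofibroblasts alone 4 passed the filter on low counts, so a member that entered a comparison through its urothelial level had to come out lower there.

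Itgb1 stood in fibroblasts at 245, 206, 253, 195, 229 and 301 CPM, against 112, 106, 105, 90.0, 91.2 and 121 CPM in urothelial cells. The types did not overlap. The difference was 1.14 ± 0.12 in fibroblasts and 1.36 ± 0.13 in myofibroblasts (adjusted p = 5.39e-10 and 1.09e-11). Itgb5 was 1.67-fold higher in fibroblasts and 2.29-fold higher in myofibroblasts (0.74 ± 0.17 and 1.20 ± 0.17). Itgav was 1.37-fold and 1.59-fold higher (0.45 ± 0.15 and 0.67 ± 0.16), and its fibroblast call was lost without the chronic 1 library (0.37, adjusted p = 0.0531).

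Among the hemidesmosome and laminin members, Itga6, Itgb4 and Lamb3 passed the filter within fibroblasts. They differed from urothelial cells by -3.87 ± 0.25, -2.90 ± 0.27 and -3.35 ± 0.24. They rested there on 98, 108 and 73 UMIs over the 6 libraries, so nothing is read from the size of these differences. The differences of Col17a1 and Lama3, on 41 and 29 fibroblast UMIs, are not given. In myofibroblasts Itgb4 passed the filter and differed by -2.90 ± 0.29. It rested there on 103 UMIs over the 6 libraries, at 5.22 to 32.9 CPM, so nothing is read from that difference. Itga6 and Lamb3 did not pass the filter in myofibroblasts and stood at 0 to 21.8 CPM and 3.70 to 16.4 CPM in the 6 libraries. Urothelial transcripts were also present in these droplets. The summed level of Upk1a, Upk1b, Upk2, Upk3a and Krt19 in fibroblasts was 4.09% to 20.6% of the urothelial level (median 15.9%), beside medians of 6.29% for Itga6, 11.5% for Itgb4, 14.2% for Col17a1 and 10.1% for Lamb3. Their part in the low levels was not tested. Itgav, Itgb1 and Itgb5 were above that list's ratio in 6 of 6 libraries in both types. The chronic 2 library held 21 fibroblasts, and its fibroblast values rest on 0 to 22 UMIs for each member.

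Between the stromal types only Itga3 was called. It stood in fibroblasts at 8.95, 7.85, 0.936, 1.34, 4.81 and 41.1 CPM and in myofibroblasts at 23.005, 11.5, 8.18, 12.2, 0 and 10.9 CPM. The 0 and the 41.1 CPM come from the sparse chronic libraries. Myofibroblasts were higher in 4 of 6 libraries and the types overlapped. The difference was 1.36 ± 0.34 (adjusted p = 0.00405), with 14.8% of all genes called, 7.98% higher and 6.82% lower, and it was lost without the acute 2 library (0.95, adjusted p = 0.114), which held the most myofibroblasts.

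In endothelial cells, 3 members were higher and 5 lower than in urothelial cells, with 42.6% of all genes called, 20.4% higher and 22.1% lower. Those higher were both chains of the alpha 6 beta 4 pair and Itgb1. Basal cells alone had means of 213 CPM for Itga6 and 131 CPM for Itgb4 (n = 6). The endothelial means were 196 and 124 CPM (n = 5), so neither was above the basal mean. For Itgb1 the endothelial mean was 208 CPM and the basal mean 162 CPM. Endothelial cells were not tested against basal cells. Endothelial Itga6 stood at 331, 181, 167, 138 and 164 CPM in the 5 libraries with at least 20 endothelial cells (all but healthy 2), against 161, 140, 97.1, 77.0 and 81.7 CPM in their urothelial cells. It was higher in 5 of 5 libraries, by 0.66 ± 0.23 (adjusted p = 0.018). Itgb4 differed by 0.80 ± 0.27 (adjusted p = 0.0161), with 71.0, 141, 97.8, 163 and 148 CPM, and was higher in 4 of 5 libraries, healthy 1 being the exception.

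The endothelial values of Itga6 and Itgb4 rest on 11 to 104 UMIs per library. Without acute 2, 5 members were called, and Itga6 (0.56, adjusted p = 0.0778), Itgb4 (0.58, adjusted p = 0.0919) and Itgav (-0.71, adjusted p = 0.0572) were not. The Itga6 call was also lost without healthy 1 (0.45, adjusted p = 0.205), healthy 2 or chronic 1, with DESeq2 (0.77, adjusted p = 0.0628), with a stricter cell filter (0.47, adjusted p = 0.0897) and without integration (0.62, adjusted p = 0.0546), and so held in 6 of 13 alternatives. The Itgb4 call was also lost without chronic 1 (0.62, adjusted p = 0.0751) or chronic 2 (0.64, adjusted p = 0.0767). Itgb1 differed by 0.74 ± 0.15 (adjusted p = 0.000102). The urothelial RNA list had a median of 36.9% of its urothelial level in endothelial cells, whereas Itga6, Itgb4 and Itgb1 had 179%, 219% and 194%. Col17a1, Itgb6 and Lamb3, counted among the 5 lower, had 0 to 2, 0 to 2 and 1 to 5 UMIs per endothelial sample and entered the test through their urothelial level, so their calls were set by the filter. Itgb5 and Itgav, with 2 to 12 and 2 to 16 UMIs per endothelial sample and in the test through their urothelial level too, differed by -1.17 ± 0.30 and -0.82 ± 0.25, and nothing is read from those calls.

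In macrophages 7 members were lower and 0 higher, with 52.7% of all genes called, 24.1% higher and 28.6% lower. Col17a1, Lama3, Itgb6 and Itga3, among the 7, had 14, 6, 23 and 41 macrophage UMIs over the 6 libraries and entered the test through their urothelial level, so their calls were set by the filter. Itga6 differed by -1.61 ± 0.25 and Itgb4 by -1.52 ± 0.30. Their median levels, 31.8% and 26.8% of the urothelial level, lay near the 26.4% of the urothelial RNA list. Itgav (-0.10 ± 0.19), Itgb1 (0.19 ± 0.14) and Itgb5 (0.08 ± 0.20) were not called. Of all Itga6 UMIs in the classes compared, 97.2% came from urothelial cells, as did 96.4% of those of Itgb4, 80.7% of those of Itgav and 70.8% of those of Itgb1. By library the urothelial share ran from 58.5% to 95.4% for Itgav and from 45.5% to 93.6% for Itgb1. Urothelial cells made up 75.4% of the cells in these classes, and 53.2% to 94.5% by library. They were also deeper, with median UMIs per cell of 3766 in basal, 4978 in intermediate and 8881 in superficial cells. Fibroblasts had 2529, myofibroblasts 3360 and macrophages 2736. The share of cells is thus too low a baseline for these shares of UMIs, and no enrichment of Itgav in urothelial cells is read from them.

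**Figure D4:**
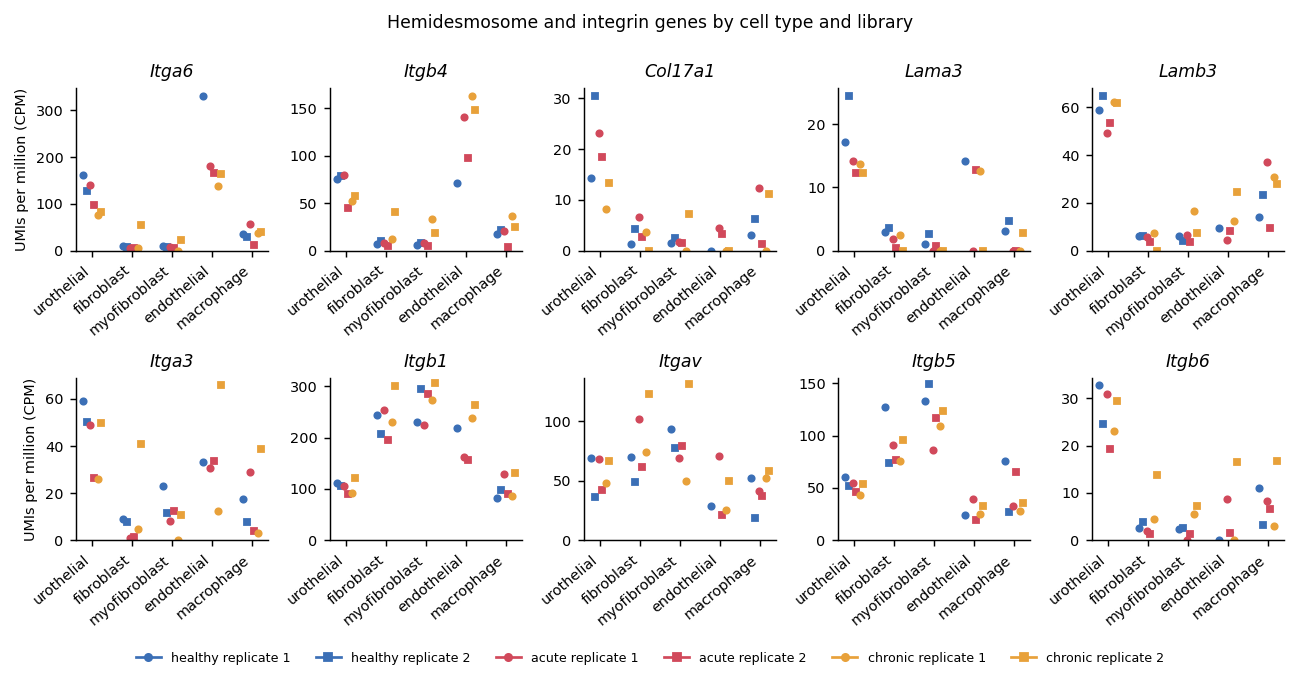
Level of each member (CPM, linear axes from 0) in urothelial cells, fibroblasts, myofibroblasts, endothelial cells and macrophages, with 1 point per library with at least 20 cells of the type, colored by condition. Itgb1 reaches 195 to 301 CPM in fibroblasts against 90.0 to 121 CPM in urothelial cells, and Itga6 reaches 138 to 331 CPM in endothelial cells.

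The last comparison asked whether injury changed the members. Each class was tested separately, giving 73 member tests in each of 3 contrasts. None was called for acute against healthy, chronic against healthy or acute against chronic (edgeR, and 0 by DESeq2), while the share of all genes called in these tests ran from 0% to 0.278%, and was 0.00726% for acute against healthy in all urothelial cells. At an unadjusted p below 0.05 there were 5, 9 and 4 of the 73. The share of all genes at that unadjusted level is not set beside them, so nothing is read from these counts. The lowest adjusted p values were 0.586, 0.527 and 0.537. The median SE of these tests was 0.33 to 0.34 on the log2 scale, which limits what 2 libraries a condition can show.

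Itga6 came nearest. Over all urothelial cells it stood at 161 and 127 CPM in healthy, 140 and 97.1 CPM in acute and 77.0 and 81.7 CPM in chronic libraries. Both chronic libraries lay below both healthy ones, and the difference was -0.84 ± 0.21 (adjusted p = 0.527). Basal cells made up 23.8% and 35.3% of urothelial cells in healthy, 34.8% and 32.3% in acute and 9.24% and 25.4% in chronic libraries. Superficial cells made up 4.93% and 2.81% in healthy, 18.5% and 16.7% in acute and 12.0% and 14.6% in chronic libraries. The part of these shares in the values over all urothelial cells was not tested. Within basal cells Itga6 stood at 310 and 189, 280.0 and 174, and 160.1 and 165 CPM, and within intermediate cells at 136 and 109, 138 and 92.1, and 83.8 and 80.8 CPM. In both layers the chronic libraries were the lowest pair.

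In all urothelial cells, 5 of 10 members (Itga3, Itgb4, Lama3, Col17a1 and Itga6) were lower in both chronic than in both healthy libraries, against 19.1% of all genes, and 4 (Itga3, Lama3, Itgb1 and Lamb3) were lower in both acute libraries, against 16.9%. In basal cells alone the chronic count was 4 of 10 (Itgb4, Lama3, Col17a1 and Itga6), against 16.6%, the acute count was 2 (Itgb4 and Lama3), against 14.1%, and Lamb3 was higher in both chronic libraries, against 15.2%. In intermediate cells only Itga6 was lower in both chronic libraries, against 16.9%, Lamb3 was higher, against 15.7%, and Itga3 and Itgb4 were lower in both acute libraries, against 12.9%. In superficial cells Itga3, Itgb1 and Itgav were higher and Lama3 and Itgb6 lower in both chronic libraries, against 15.5% and 15.4%, and Lama3 was lower in both acute libraries, against 14.7%. In cycling basal cells 5 members were lower in both acute libraries, against 19.0%. In both chronic libraries 4 were lower, against 17.2%, and Itgb5 was higher, against 15.4%. In cycling intermediate cells Itga3 was lower in both acute libraries, against 16.1%. In both chronic libraries Itgb4 and Itga6 were lower there, against 16.1%, and Lamb3 higher, against 15.9%. Of 4 members in myofibroblasts, Itgb5 was lower in both acute and both chronic libraries, against 15.4% and 17.2%. Itgb4 was higher in both chronic ones, against 18.8%. In fibroblasts 4 of 9 members (Itga3, Lamb3, Itgb6 and Itga6) were lower in both acute libraries, against 16.4%. In both chronic libraries 3 of 9 (Itgb4, Itgb6 and Itgav) were higher, against 15.1%. The urothelial transcripts Upk1a, Upk1b, Upk2, Upk3a and Krt19 had median log2 differences of -0.63 (acute) and 0.97 (chronic) from healthy fibroblasts. Their part was not tested, and chronic 2 held only 21 fibroblasts. Lamb3 stood in basal cells at 104 and 88.5 CPM in healthy, 97.5 and 86.6 CPM in acute and 108 and 112 CPM in chronic libraries, and in intermediate cells at 52.5 and 59.9, 59.3 and 59.2, and 70.4 and 67.0 CPM. The chronic pair was thus the highest in both layers, and no test called the difference.

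Lama3 in superficial cells differed most between conditions among the urothelial layers, at -1.99 ± 0.57 for acute against healthy (adjusted p = 1), on 6 to 17 UMIs per library. Cycling basal cells had Itga3 at 194 and 124 CPM in healthy, 109 and 52.4 CPM in acute and 50.3 and 96.3 CPM in chronic libraries. All 4 injured libraries lay below both healthy ones, with -0.95 ± 0.38 and -1.11 ± 0.41 (adjusted p = 0.603 and 0.702). In fibroblasts 9 members and in myofibroblasts 4 members passed the filter on low counts and were tested.

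The difference between basal and intermediate cells was also compared between conditions. The interaction was called for 0 of 10 members in acute and 0 of 10 in chronic against healthy libraries (edgeR, and 0 by DESeq2), with 0.0392% and 0.267% of all genes called and 5 and 2 members at an unadjusted p below 0.05. The unadjusted counts stand without the share of all genes at that level, so nothing is read from them. The acute minus healthy value of the layer difference was -0.43 ± 0.14 for Itgb4 (adjusted p = 0.694), -0.51 ± 0.17 for Lama3 (0.707) and -0.36 ± 0.12 for Itgav (0.708). The chronic minus healthy value was -0.54 ± 0.18 for Itga3 (adjusted p = 0.396) and -0.55 ± 0.19 for Itgb6 (0.413). The steps of Itga6 (-0.01 ± 0.11 and -0.01 ± 0.12) and Col17a1 (-0.11 ± 0.25 and 0.03 ± 0.27) had intervals of -0.24 to 0.23 at widest for Itga6 and of -0.60 to 0.56 for Col17a1. Of the other adhesion genes, Dst had a smaller basal excess in acute libraries (-0.53 ± 0.10, adjusted p = 0.0271).

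**Figure D5:**
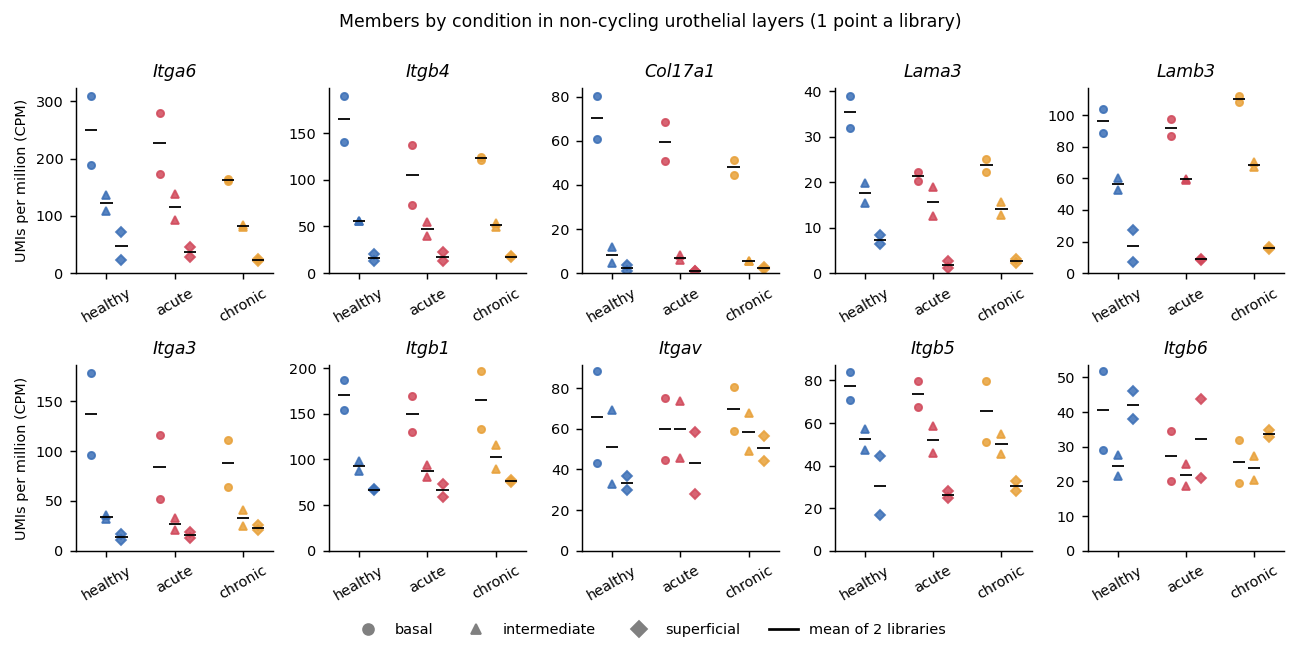
Level of each member (CPM, linear axes from 0) by condition in non-cycling basal, intermediate and superficial cells, with 1 point per library and short lines at the mean of 2 libraries. The layers keep their order in each condition for Col17a1, Itgb4 and Itga6, while the 2 libraries of a condition often lie as far apart as the conditions, as for Itgav in healthy basal cells at 88.3 and 43.2 CPM.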

How the data were processed

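The authors made 10x Chromium 3' libraries and deposited, for each of the 6 libraries, 1 table of unnormalized UMI counts with genes in rows and cells in columns. Their notes name Cell Ranger and mm10, and 1 gene line of the healthy 1 table was incomplete and left out. The members and gene lists were chosen with earlier results of these data known. A cell needed more than 500 genes and a mitochondrial share below 10%, and the highest Scrublet scores (scanpy 1.11.5), 0.8% per 1000 cells, were taken as doublets and left out. Libraries were normalized with sctransform 0.4.2, integrated with Seurat 5.3.0 on 3000 features and clustered with leidenalg 0.10.2. Clusters were named from marker lists. Basal cells had a higher basal than luminal score, superficial cells were taken as sub-clusters, and cycling cells exceeded 2 median absolute deviations on a G1/S or G2/M score. For every class with 20 or more cells in a library the counts were added up and tested with edgeR 4.0.16 (TMM, filterByExpr, quasi-likelihood), with library as a covariate between classes and none between conditions. P-values were adjusted by Benjamini-Hochberg over all genes tested. Intervals are at 95%. Classes come from other genes of the same cells. The classes of a fit shared an estimate of each gene's spread. P-values between classes thus rest on the spread over all classes and libraries of the fit. They do not measure how steady a given difference is over libraries. Beyond the 10 members, at most 2 rises and 2 falls of each list were named in a comparison, largest first, among those called with a mean of at least 20 CPM. For 1 gene that this rule would name, the result is not reported here. Alternatives were DESeq2 1.42.0, its size factors, no filter, stricter cells, doublets kept, other layer and cycling calls, no integration, each library left out and a replicate block. The fits were tested on simulated data. Positions come from GENCODE M21 and promoter sequences from RefSeq. Promoters of Itga6, Itgb4 and Lama3 and protein sequences were not used here.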

Additional observations from a re-analysis of the deposited data

Results flagged for a closer look

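Within each library, 100 differences of a member between classes were screened for a library far from the others, on the log2(CPM + 1) scale. Chance flags about 1 in 20 such groups, and 4 were found. The basal minus intermediate difference of Itgb5 was 0.174 in chronic 1 and 0.435 to 0.572 in the other 5 libraries. The remaining 3 were all in chronic 2, which held 21 fibroblasts. The fibroblast minus urothelial difference of Itga6 was -0.569 there against -4.63 to -3.39 elsewhere. That of Lamb3 was -5.97 against -3.54 to -2.93, and the myofibroblast minus urothelial difference of Col17a1 was -0.784 against -3.20 to -2.65. These 3 rest on 4, 0 and 2 UMIs.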

How the results depend on the processing

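Of 206 counts of called members under alternatives, 197 stayed within 1.5 times, and of 4874 single values none reversed a called direction. All 65 called values kept their direction in every alternative run, and 13 lost their call in at least 1. With layers called by whole sub-clusters, the count fell to 0 for cycling against non-cycling intermediate cells and was 2 for basal cells, where the higher Itgb4 call gave way to lower calls of Itga6 (-0.29, adjusted p = 0.0194) and Lamb3 (-0.42, adjusted p = 0.0103), and 1 interaction of layer with cycling was called (Itgb1, -0.36, adjusted p = 0.0486). Without integration these 2 counts were 1 and 0. A cycling threshold of 4 deviations left 3 calls between the cycling layers. The cause of these changes was not tested. Leaving out each library gave counts of 1 to 2 for cycling against non-cycling basal cells (2 without healthy 1, Lamb3 added), 5 to 8 for endothelial cells (5 without acute 2) and 0 to 1 between the stromal types (0 without acute 2). Keeping the sub-cluster with stromal RNA, an alternative chosen after seeing the data, moved no count by over 1.5 times. For injury, 0 members were called under each of the 15 settings. Same-numbered libraries deviated together between healthy and acute (r 0.0667 to 0.418) and in opposite directions with chronic (-0.306 to -0.0688), so the numbers were not taken as pairs. Median UMIs per cell were 9138 and 7237 in healthy 1 and 2, 9041 and 5747 in acute 1 and 2, and 5530 and 8665 in chronic 1 and 2. The part of depth in these correlations was not tested. A replicate block called 0 members, as did a block with the chronic numbers crossed, added after seeing the data. Depth limits Col17a1 and Lama3 outside basal cells.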
